A study of Mus musculus with 8 samples.

Results

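Somites and the paraxial mesoderm next to them were examined in chimaeric mouse embryos at E8.5. The cells were chosen from their own counts: a kept cell was a member when it had at least 1 UMI (unique molecular identifier, 1 captured transcript) of Tcf15 and of Meox1 and 0 UMIs of Tbx6. The rule found 908 members among 37186 kept cells of the 6 E8.5 libraries, or 2.44%. Kept cells had at least 1500 UMIs, at most 30% of them from mitochondrial genes and at most 35% from Rps and Rpl ribosomal protein genes.

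The chimaeras were made by injecting Tet-TKO ES cells, which lack all 3 TET enzymes and carry an H2B-tdTomato transgene under the CAG promoter, into C57BL/6J blastocysts carried by CD1 recipients. Pooled embryos were dissociated and sorted into tdTomato+ cells, labelled Tet-TKO with the background C57BL/6J-129Sv, and tdTomato- cells, labelled wild type with the background C57BL/6J. At E8.5 the series has 4 libraries of Tet-TKO cells and 2 of WT host cells, and E7.5 has 1 library of each. The Tet-TKO cells came from 1 ES cell line, and no library of injected wild-type ES cells was analysed here, so genotype, strain background and ES cell origin cannot be told apart. Nothing in the labels ties a library to separate litters, so p-values measure the spread between these libraries, which may be technical.

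Paraxial mesoderm flanks the neural tube. Its tail end, the presomitic mesoderm, is kept immature by FGF and Wnt signals and is marked by Tbx6 and Msgn1, while a Notch-driven oscillator sets the pace at which epithelial blocks, the somites, bud off at its head end. Tcf15 (paraxis) is needed for somites to become epithelial, Meox1 acts in somite patterning, and the somite later yields sclerotome (vertebrae and ribs) and dermomyotome (muscle and dermis). TET enzymes oxidise 5-methylcytosine in CpG dinucleotides, a step towards demethylation.

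Of 9 genes looked up, 5 had a promoter in the table used, and these are shown: Meox2 and Uncx were higher in members than in presomitic cells, Msgn1 was lower, and Dmrt2 and Mfap2 had lower levels in all Tet-TKO libraries. The sequences are RefSeq promoters of 300 bases on GRCm38.p6, 5′ to 3′, with each CG in capitals.
Meox2: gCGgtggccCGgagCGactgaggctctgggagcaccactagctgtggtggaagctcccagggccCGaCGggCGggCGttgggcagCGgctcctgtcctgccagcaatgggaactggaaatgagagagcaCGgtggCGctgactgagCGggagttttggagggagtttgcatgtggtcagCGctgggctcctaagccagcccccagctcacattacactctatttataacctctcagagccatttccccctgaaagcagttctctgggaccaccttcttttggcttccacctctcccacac
Uncx: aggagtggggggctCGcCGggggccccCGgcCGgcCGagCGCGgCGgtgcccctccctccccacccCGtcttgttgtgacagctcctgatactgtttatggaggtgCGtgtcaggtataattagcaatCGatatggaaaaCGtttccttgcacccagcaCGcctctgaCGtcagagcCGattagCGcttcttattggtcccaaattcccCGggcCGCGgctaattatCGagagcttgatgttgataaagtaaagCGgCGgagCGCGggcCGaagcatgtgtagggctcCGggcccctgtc
Msgn1: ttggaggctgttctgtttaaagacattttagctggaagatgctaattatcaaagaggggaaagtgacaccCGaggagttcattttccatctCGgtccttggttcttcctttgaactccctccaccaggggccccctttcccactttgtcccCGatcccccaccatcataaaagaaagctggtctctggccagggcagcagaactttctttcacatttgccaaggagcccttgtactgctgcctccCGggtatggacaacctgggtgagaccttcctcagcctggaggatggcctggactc
Dmrt2: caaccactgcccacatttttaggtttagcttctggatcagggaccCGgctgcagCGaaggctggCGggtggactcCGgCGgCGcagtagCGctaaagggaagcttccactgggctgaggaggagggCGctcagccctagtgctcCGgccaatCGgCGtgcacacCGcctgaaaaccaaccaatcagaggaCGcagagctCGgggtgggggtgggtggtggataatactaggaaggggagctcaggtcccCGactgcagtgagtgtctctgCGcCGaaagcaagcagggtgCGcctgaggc
Mfap2: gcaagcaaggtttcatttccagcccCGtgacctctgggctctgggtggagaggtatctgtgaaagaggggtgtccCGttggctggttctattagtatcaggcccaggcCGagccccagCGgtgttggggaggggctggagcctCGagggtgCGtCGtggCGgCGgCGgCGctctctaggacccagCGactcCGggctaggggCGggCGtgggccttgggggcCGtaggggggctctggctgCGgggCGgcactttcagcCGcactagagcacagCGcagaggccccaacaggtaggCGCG
The Meox2 promoter (chr12:37108290-37108589, plus strand) held 12 CG, a number reached by 39.6% of the 32851 promoters in the table. Uncx (chr5:139543648-139543947, plus strand) held 26, reached by 16.9%, and Mfap2 (chr4:141010431-141010730, plus strand, 1 of 2 starts) held 22, reached by 23.1%. Dmrt2 (chr19:25672161-25672460, plus strand) held 18, reached by 29.7%. Msgn1 (chr12:11208899-11209198, minus strand) held 4, the fewest of the 5, reached by 68.6%. The median promoter held 7 CG. The E-box CANNTG, the core recognised by basic helix-loop-helix factors such as Tcf15 and Msgn1 and its own reverse complement, occurred 1 time each in the promoters of Meox2, Uncx and Msgn1, was not found in those of Dmrt2 and Mfap2, and is present in 72.3% of all promoters. Methylation was not measured in these libraries.

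Members made up 1.58%, 1.71%, 4.22% and 4.96% of the kept cells in the Tet-TKO libraries numbered 1 to 4. In the WT host they made up 2.37% of library 1 and 3.22% of library 2. The Tet-TKO values lie on both sides of the WT values. Depth also differed: members had a median of 20282, 12726, 39106 and 73293 UMIs in the Tet-TKO libraries and 15148 and 13352 in the WT libraries. A deeper cell is more likely to show a UMI of a rule gene, and a UMI of Tbx6 excludes it. Tet-TKO libraries 3 and 4 were the deepest and had the highest shares. Tet-TKO library 1 had the lowest share and was deeper than Tet-TKO library 2 and both WT libraries. The cause of the spread in shares was not tested. The mean share was 3.12% ± 1.73 (SD, n = 4) in Tet-TKO and 2.80% ± 0.598 (SD, n = 2) in WT (difference 0.319 percentage points, two-sided exact permutation p = 0.8). With 4 libraries against 2 the smallest p that this test can give is 0.133.

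When every cell was thinned to 5000 UMIs, which left out 2238 shallower cells, Tet-TKO shares became 0.74%, 1.13%, 2.34% and 3.26% and WT shares 1.6% and 2.32%. The direction of the mean difference then turned to -0.0906 percentage points (exact permutation p = 1.0), and it also turned without cells of high haemoglobin (-0.316), without Tet-TKO library 3 (-0.0484) or 4 (-0.295) and without WT library 1 (-0.104). A difference in the share between genotypes was not detectable with these libraries.

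**Figure D1:**
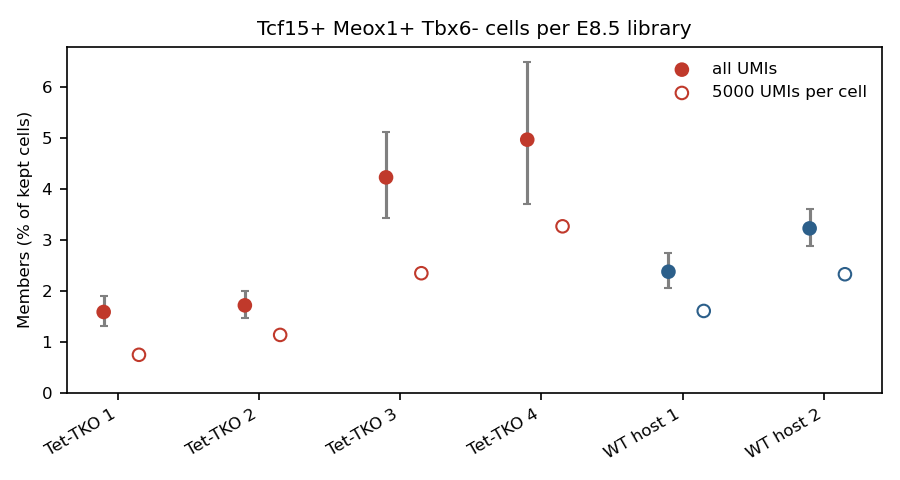
Share of kept cells that were members in each E8.5 library (y axis, percent), from all UMIs (filled points, bars are exact 95% binomial intervals) and after thinning to 5000 UMIs per cell (open points). Tet-TKO libraries 1 and 2 lie below and libraries 3 and 4 above both WT host libraries on both scales.

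The rule rested on few molecules in some cells. Of the members, 69 (7.6%) had exactly 1 UMI of each of Tcf15 and Meox1. Just outside the rule were 56 cells with Tcf15, Meox1 and 1 UMI of Tbx6, and 38 with 2 or more. Tcf15 without Meox1 was seen in 1801 kept cells and Meox1 without Tcf15 in 1113. By score of Scrublet, a doublet caller, 108 members were marked, which were removed only as an alternative. They were 15 of 111, 25 of 163, 3 of 97 and 0 of 50 members in Tet-TKO libraries 1 to 4. In WT libraries they were 24 of 196 and 41 of 291. Of all kept cells, 407 of 7039, 745 of 9545, 47 of 2299 and 10 of 1008 were marked in Tet-TKO libraries. The WT numbers were 586 of 8257 and 688 of 9038. No member's barcode was that of a member in another library, although 6 were kept barcodes elsewhere.

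The cells carried the markers of paraxial mesoderm that the rule had not used. After thinning, Foxc2 was detected in 48.2% of 878 members and Foxc1 in 35.3%, against 0.711% and 3.48% of 5488 cells with at least 2 UMIs of the neural factor Sox2 and none of the rule genes. The median depth before thinning was 16010 UMIs in these members and 15567.5 in the Sox2 cells, and without thinning the shares of members were 80.2% and 67.8%. Foxc1 and Foxc2 are forkhead factors needed together for somite formation. Foxf1, a lateral mesoderm factor, was detected in 283 members (31.2%), and after thinning in 12.6% of members and 2.95% of the Sox2 cells. The thinned share was 27.5% and 20% in Tet-TKO libraries 1 and 2 against 6.0% to 9.04% in the other 4 libraries. Without thinning, 45 of 111, 103 of 163, 61 of 97 and 25 of 50 Tet-TKO members had no Foxf1 UMI. In WT libraries 154 of 196 and 237 of 291 had none.

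Members were first set against presomitic cells, defined as kept cells with at least 1 UMI of Tbx6 and 0 of Meox1 (1114 cells), on counts summed per library. These cell sets were chosen by their rule genes, so genes that go together with Tcf15, Meox1 or Tbx6 were likely to differ, and the calls describe the sets. A call means an adjusted p under 0.01 in the edgeR quasi-likelihood test and a log2 fold change of at least 1 in size. Of 10689 genes tested, 289 (2.70%) were higher and 324 (3.03%) lower in members.

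Of the somite transcription factors 15 of 17 tested were higher and none was lower, and their median log2 fold change was 2.26 against 0.0 over all genes. Foxc2 had 105 to 170 CPM (UMIs of the gene scaled to the same library total, counts per 1e6) in members against a mean of 8.23 CPM in presomitic cells (log2 fold change 3.99). Meox2, the partner of Meox1, had 3.26, 7.61, 14.3 and 21.3 CPM in the Tet-TKO and 9.49 and 19.3 CPM in the WT libraries, and at most 0.372 CPM in presomitic cells (log2 fold change 5.67 ± 0.39 SE, adjusted p = 6.94e-08). Its lowest member library was thus above every presomitic value. Uncx, which marks the posterior part of each somite, and Tbx18, which marks the anterior part, were higher by 5.44 and 4.55 on the log2 scale. Pax3, a dermomyotome regulator, was higher by 1.90. Zic1 (-0.07) was among those not called.

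In the sclerotome list 5 of 7 tested genes were higher and none lower, among them Foxd2 (6.55), Twist1 (2.42), Sox9 (2.05) and the cartilage collagen gene Col2a1 (1.33). In the dermomyotome and myotome list 6 of 10 were higher and none lower, including Fst (follistatin, which binds activins; 1.62), Eya2 (2.81) and Sim1 (2.44), all as log2 fold changes. Later genes were at or near 0: Myog had at most 0.316 CPM and Myod1 at most 0.238 CPM in any library, and Nkx3-2 had UMIs in Tet-TKO library 1 alone.

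All 15 genes of the presomitic list were lower in members, with a median log2 fold change of -3.33. The T-box factor T had 1.89 to 21.1 CPM in members against a mean of 169 CPM in presomitic cells (-3.99). Msgn1 had 1 UMI over all members and 209 over presomitic cells, a ratio of 167 with a 95% counting interval of 29.7 to 6640. Wnt3a fell by 5.23, the posterior Cdx4 by 4.56, Rspo3, which amplifies Wnt signals, by 3.33, and Hes7, a core gene of the segmentation clock, by 3.59 on the log2 scale. Outside the list, the mesoderm factors Mixl1 (-5.46) and Evx1 (-4.31) were lower. Cpa6, a carboxypeptidase gene, had no UMI in members and was at least 31-fold lower, from a floor of 3 counts over all members.

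Of 16 FGF genes tested 9 were lower and 2 higher (median -1.72). The ligand genes Fgf17 (-5.07), Fgf4 (-4.34), Fgf3 (-4.02) and Fgf8 (-2.70) and the target genes Spry4 (-3.03) and Etv4 (-2.64) were lower, while Fgf18 (1.33) and the receptor gene Fgfr2 (1.04) were higher. Of 16 Wnt genes 8 were lower, among them the targets Notum (-3.44) and Axin2 (-1.23), and 3 were higher, the receptor genes Fzd2 (1.63) and Fzd7 (1.46) and the inhibitor Sfrp5 (2.18). Of 13 Notch and clock genes 7 were lower and none higher (median -1.08), including the ligand genes Dll1 (-2.82) and Dll3 (-2.40).

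Genes of retinoic acid, the signal that opposes FGF along the axis, went both ways. Aldh1a2, the enzyme that completes retinoic acid synthesis, had 171 to 272 CPM in members and a mean of 44.5 CPM in presomitic cells (2.45). Rdh10, which acts before it, was higher by 2.72 and the receptor gene Rarb by 2.79. The degrading enzyme Cyp26a1 was lower by 2.71 (log2 fold change -2.71) and the receptor gene Rarg also fell (-2.14). In all, 4 of 11 genes were higher and 3 lower (median 0.12).

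Hox genes, whose number along the cluster follows position along the body axis, were lower in members for 22 of 28 tested and higher for none (median -2.0). The falls included Hoxd9 (-3.79), Hoxc6 (-3.71), Hoxc8 (-3.62) and Hoxb8 (-3.48). Those not called included Hoxa2 (0.55), Hoxb2 (-0.44), Hoxa5 (-0.72), Hoxa10 (-1.38) and Hoxd3 (0.12).

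Among all genes, those with the largest rises that held in all 6 libraries included Foxd2, Cldn1, Meox2, Cer1, Foxd2os, Uncx, Tbx1, Cd36, Wfdc21, Cped1 and Tnfaip6. Cer1, a secreted BMP and Nodal antagonist made in the newest somites, had 14.0 to 19.6 CPM in the Tet-TKO libraries and 30.1 and 4.24 CPM in the WT libraries, against a mean of 0.396 CPM in presomitic cells (log2 fold change 5.45). The WT libraries differed from each other more than the Tet-TKO libraries did. Cldn1, a tight junction claudin, had 130 UMIs in members and 1 in presomitic cells, a ratio of 162 (95% counting interval 28.6 to 6460).

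**Figure D2:**
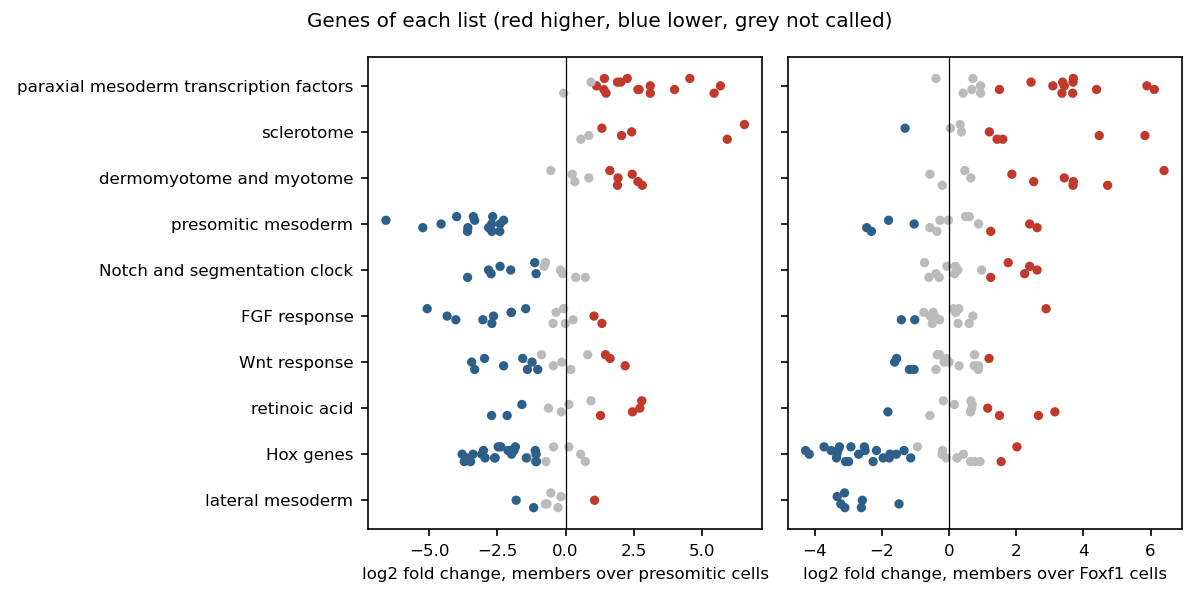
Log2 fold changes (x axis) of the tested genes of 10 lists, members over presomitic cells on the left and over Foxf1 cells on the right, 1 point per gene; red and blue points were called higher and lower and grey points were not called. The presomitic list lies wholly to the left of 0 in the left panel, where Tbx6 chose the comparison cells. Lateral mesoderm genes lie wholly to the left in the right panel, where Foxf1 chose them. Fitted values of genes with almost no counts, such as Msgn1, depend on the prior count.

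Against Foxf1 cells (Foxf1 and none of the rule genes, 11339 cells), which include lateral and other mesoderm, 366 of 13375 genes (2.74%) were higher and 891 (6.66%) lower in members. Of the somite transcription factors 12 of 18 were higher and none lower (median 3.22 against 0.02 over all genes). Uncx (6.11), Meox2 (5.89) and Foxc2 (4.39) were higher again, while Prrx1 (-0.39), Prrx2 (0.42), Zic1 (0.68), Foxp1 (0.94) and Nr2f2 (0.94) were among those not called. In the sclerotome list 5 of 9 were higher and 1, Bmp5 (-1.31), was lower, and Twist1 (0.04) was not called. Of 14 Notch and clock genes 5 were higher and none lower, among them Dll1 (2.62), Dll3 (2.40) and Lfng (2.25), a modifier of Notch. Cer1 (7.52), Sim1 (6.40), the segment border genes Mesp2 (5.72) and Pcdh8 (5.08) and the Hoxa-linked transcript Halr1 (7.67) were among the 12 largest rises.

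All 7 lateral mesoderm genes tested were lower than in Foxf1 cells (median -3.10), as were 5 of 6 cardiac genes and 5 of 6 endothelial genes. Foxf1, a lateral mesoderm factor, chose the comparison cells. Genes that go together with it were thus likely to be lower in members, and these calls describe the sets. The adhesion genes Vcam1 (-4.23) and Postn (-4.21), the endothelial receptor Tek (-4.13) and the Hox genes Hoxd11 (-4.27) and Hoxd10 (-4.16) had some of the largest falls. Imprinted genes, expressed from 1 parental allele, were lower for 17 of 27 and higher for 1 (median -1.38). Cdkn1c, a growth inhibitor, fell by 2.50 and Dlk1 by 2.77 on the log2 scale, while Nnat was higher by 1.13.

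The comparison of genotypes within members asked which genes differed between Tet-TKO and WT members. Of 10948 genes tested, 17 (0.155%) were higher and 21 (0.192%) lower in Tet-TKO members, with a median log2 fold change of 0.02 over all genes. At an unadjusted p under 0.05 there were 1065 genes. Without WT library 1 the counts were 7 and 8, and without WT library 2 they were 8 and 6. The Tet-TKO libraries stood in pairs: on the first principal component of the members' levels (44.1% of the variance) libraries 1 and 2 lay at -12.6 and -6.18, libraries 3 and 4 at 33.2 and 41.2, and the WT libraries at -30 and -25.6. Without Tet-TKO libraries 3 and 4 the counts were 53 and 66, and without libraries 1 and 2 they were 180 and 167. Of the 17 higher, 11 were named or annotated as pseudogenes and 1 was tdTomato. Copies annotated as protein-coding genes were not counted among the 11. The 21 lower included 2 haemoglobin genes, Xist and the Y-linked Eif2s3y.

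The label check came first. tdTomato had 109, 125, 174 and 173 CPM in Tet-TKO members and 0 and 0.943 CPM in WT members, and UMIs of it were found in 72.4% to 88.7% and 0% to 1.37% of the cells. The targeted genes were still counted: Tet1 had 9.78 to 25.6 CPM in Tet-TKO and 26.6 and 28.8 CPM in WT members (log2 fold change -0.67, adjusted p = 0.537), Tet2 0.58 and Tet3 0.13, and counts outside a deleted part check nothing. Xist had 23.0 to 35.9 CPM against 296 and 463 CPM, and Eif2s3y 0.846 to 2.45 against 15.8 and 14.6 CPM. Sex chromosome content thus also differed with genotype and cannot be told apart from it. The processed pseudogene Rps3a3 had 3480 to 4530 CPM in Tet-TKO and 183 and 88.7 CPM in WT members, and the ribosomal protein gene Rps3a1 had 412 to 751 against 5070 and 4900 CPM. Reads of such near-identical copies can be assigned to either, so both are uncertain.

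All 6 tested haemoglobin genes had every Tet-TKO library below both WT libraries, as 10.7% of all genes did, and 2 of them, Hba-x and Hbb-y, were called, where 0.192% of all genes were called lower. Hba-x, the embryonic alpha globin, had 2.85, 19.9, 26.1 and 1.89 CPM in Tet-TKO and 984 and 5170 CPM in WT members. After thinning it was seen in 0% to 8.75% of Tet-TKO and 79.8% to 94.2% of WT members. Over all libraries it was seen in 49.0% of members and 45.4% of the Sox2 cells. The summed level of 7 erythroid markers was 5.13 to 145 CPM in Tet-TKO and 1690 to 10400 CPM in WT members, and none of the 7 was at 0. Alas2, Apoa1, Afp and S100g, products of blood or yolk sac, were lower as well, for example Apoa1 at 0 to 4.08 CPM against 101 and 35.4 CPM. Without the cells marked as doublets the calls of Apoa1 (log2 fold change -2.2, edgeR adjusted p = 0.361) and S100g (-3.19, adjusted p = 0.0537) were lost, and Alas2 and Afp were not tested. Over all alternatives that tested them, calls were lost under 6 of 19 for Alas2, 4 of 21 for Afp, 3 of 22 for Apoa1 and 1 of 22 for S100g. The part of free RNA in these values was not tested. Other called genes outside the lists were Fabp3 (-2.85), Zfp560 (-2.53), As3mt (-2.27), Hist1h4i (-1.67), H13 (-1.46) and Gstm5 (-1.13) among the lower, and AA465934 (4.19), Eif3j2 (3.4), Wdfy1 (3.32) and Hmga1b (2.84) among the higher, beside the pseudogenes Rps13-ps1 (4.96), Rps15a-ps8 (4.86) and BC002163 (3.32). Fabp3 lost its call without doublets with a fold change of similar size (-2.4, edgeR adjusted p = 0.373), and calls were lost under 6 of 23 alternatives for H13, 5 for As3mt, 4 for Gstm5 and 3 each for Zfp560, Hist1h4i and AA465934.

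Fst, follistatin, was called lower. It had 272, 305, 266 and 288 CPM in Tet-TKO and 529 and 635 CPM in WT members (ENSMUSG00000021765, mm10 chromosome 13, 114452290 to 114458951, minus strand). Every Tet-TKO library was below both WT libraries. The log2 fold change was -1.05 ± 0.13 (SE), with an edgeR adjusted p of 0.00572. Under 23 alternatives it ranged from -1.24 to -0.91, with the call kept in 9, and calls were lost both on the size and on the adjusted p, which reached 0.195 without WT library 2.

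Mfap2, a microfibril protein of the extracellular matrix, had 25.7, 33.8, 27.3 and 40.0 CPM in Tet-TKO and 79.1 and 107 CPM in WT members. The libraries did not overlap, as was so for all 38 called genes, and the log2 fold change was -1.57 ± 0.20 (SE, edgeR adjusted p = 0.00572). The call was lost under 6 of 23 alternatives, among them the fits without either WT library. Nrg1, a ligand of ERBB receptors, had 5.71, 7.19, 9.98 and 8.91 CPM against 23.4 and 26.6 CPM. It too did not overlap (-1.64 ± 0.22 SE, edgeR adjusted p = 0.00822), and its call was lost under 11 of 23 alternatives. Without the 283 members with Foxf1 UMIs, which were unevenly spread over the libraries, neither Fst nor Nrg1 was called (log2 fold change -0.91 for Fst and -1.13 for Nrg1, with the alternative chosen after seeing the data).

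Snrpn, an imprinted gene expressed from the paternal allele, was higher. It had 163, 120, 152 and 167 CPM in Tet-TKO and 55.4 and 55.7 CPM in WT members (log2 fold change 1.43 ± 0.16 SE, edgeR adjusted p = 0.0028). The call was lost under 2 of 23 alternatives, the fits without either WT library (adjusted p up to 0.104). Zdbf2, also imprinted, had 72.2 to 141 against 33.2 and 36.1 CPM but missed the limit (1.64, adjusted p = 0.0158), which it passed under 8 of 23 alternatives. Of 26 tested genes of the imprinted list, which did not include H13, 1 was called. Their median log2 fold change was 0.52, and 10 were higher without overlap of the libraries, where 8.30% of all genes were, and 2 lower, where 10.7% were. Asb4 went the other way (-1.78, adjusted p = 0.0294), with 3.38 to 6.18 against 13.6 and 23.6 CPM.

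No gene of the somite transcription factor list was called, and 14 of 18 had values below 0 (median -0.26 against 0.02). Foxc2 had 105 to 142 CPM in Tet-TKO and 136 and 170 CPM in WT members (-0.37, adjusted p = 0.518). These libraries overlapped in CPM. In the share of thinned members with a UMI of Foxc2 they did not, with 35.8% to 45.0% in Tet-TKO and 47.9% and 58.4% in WT. How many of all genes lack overlap on this scale was not computed. The members were chosen before thinning, at unequal depths, and no test was made. Dmrt2, a dermomyotome factor, had 0.815, 2.11, 1.90 and 5.13 CPM against 10.1 and 16.0 CPM (-2.34, adjusted p = 0.062), with no overlap. Its value did not pass the limit, and it passed under 6 of 22 alternatives.

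The muscle lineage genes were low in number of UMIs. Myf5, the first myogenic factor to appear, had 3 UMIs in the Tet-TKO members and 41 in the WT members, a WT to Tet-TKO ratio of 23.5 with a 95% counting interval of 7.5 to 119 (edgeR adjusted p = 0.0228, not past the limit of 0.01). Eya2, a transcriptional cofactor, had 4.05 to 6.18 against 16.8 and 13.7 CPM (-1.56, adjusted p = 0.0291). In the dermomyotome and myotome list 1 of 12 tested genes was called lower, where 0.192% of all genes were, and 4 were lower without overlap, where 10.7% of all genes were.

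No gene was called in the presomitic (13 tested, median 0.61), FGF (14, 0.06), Wnt (15, 0.00), Notch (13, 0.02), retinoic acid (11, -0.04), BMP (14, -0.02) or Hedgehog (10, 0.21) list between genotypes. Mesp2, which sets the segment border, had 0.815, 10.6, 13.8 and 12.4 CPM in Tet-TKO and 1.58 and 0.943 CPM in WT members (2.92, adjusted p = 0.238). Tet-TKO library 1 was below both WT libraries. Lhx1, an intermediate mesoderm factor, had 28.6 to 52.0 against 17.4 and 16.5 CPM (1.31, adjusted p = 0.0724). The summed intermediate mesoderm markers were 53.5 to 84.2 CPM in Tet-TKO and 34.2 to 37.0 CPM in WT members, while cardiac markers ranged from 14.8 to 213 and 50.0 to 74.0 CPM.

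**Figure D3:**
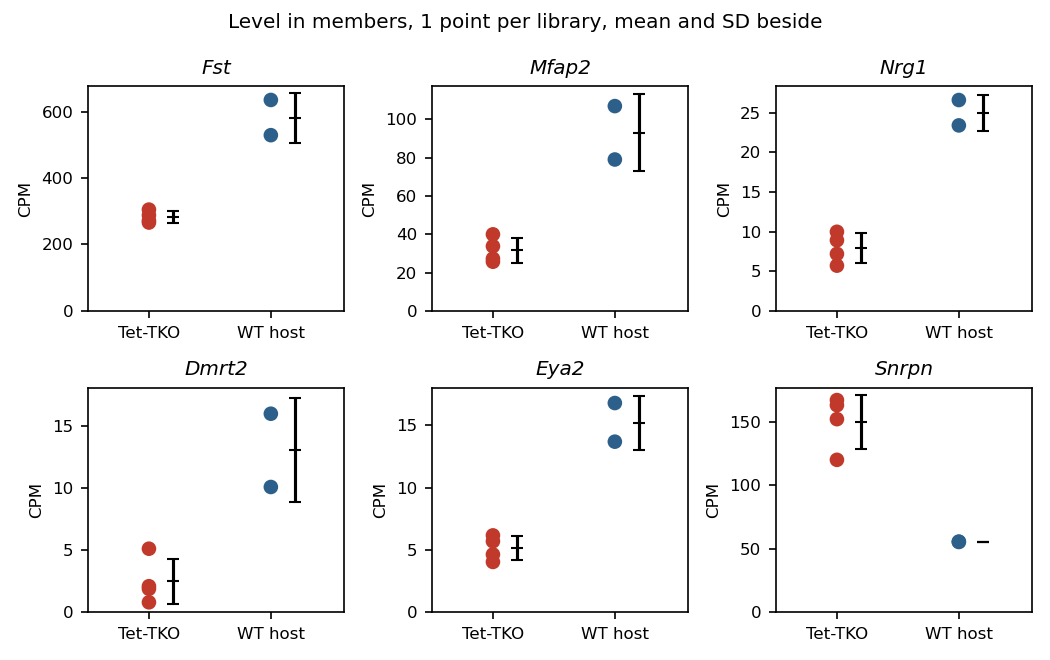
Level of 6 genes in members (y axis, CPM from 0), 1 point per library, with the mean and SD of each genotype beside the points. All 4 Tet-TKO libraries lie below both WT host libraries for Fst, Mfap2, Nrg1, Dmrt2 and Eya2, and above them for Snrpn; Dmrt2 and Eya2 did not pass the test.

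The same genes were then read in the other 2 cell sets of the same libraries, which share embryos and sorts with the members. Mfap2 was lower in Tet-TKO by 1.57 in members, with values of -1.54 in presomitic cells (adjusted p = 0.0114) and -1.33 in Foxf1 cells (0.00594). Snrpn had 1.17 and 1.62 there, H13 -1.5 and -1.49, As3mt -2.67 and -2.13, and Gstm5 -1.31 and -1.24, beside -1.46, -2.27 and -1.13 in members. Fst had -0.54 and -0.79, neither past the limit. Nrg1 had 0.01 in presomitic and -0.13 in Foxf1 cells, but the differences from members, -1.57 and -1.53, did not pass the test (adjusted p = 0.905 and 0.0633).

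A test of the difference itself called 2 of 12041 genes (0.0166%) against presomitic cells and 1 of 15285 (0.00654%) against Foxf1 cells. Osr1, a factor of intermediate and lateral mesoderm, had 28.1, 25.4, 17.3 and 17.0 CPM in Tet-TKO members and 14.6 and 12.3 CPM in WT members. In presomitic cells the order was turned, with 15.4, 13.9, 10.1 and 8.47 CPM against 49.2 and 61.7 CPM. The log2 fold change was 0.69 in members (adjusted p = 0.477) and -2.19 in presomitic cells, and the difference was 2.92 (edgeR adjusted p = 3.43e-05). The other gene, in both tests, was the pseudogene Rps3a3.

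**Figure D4:**
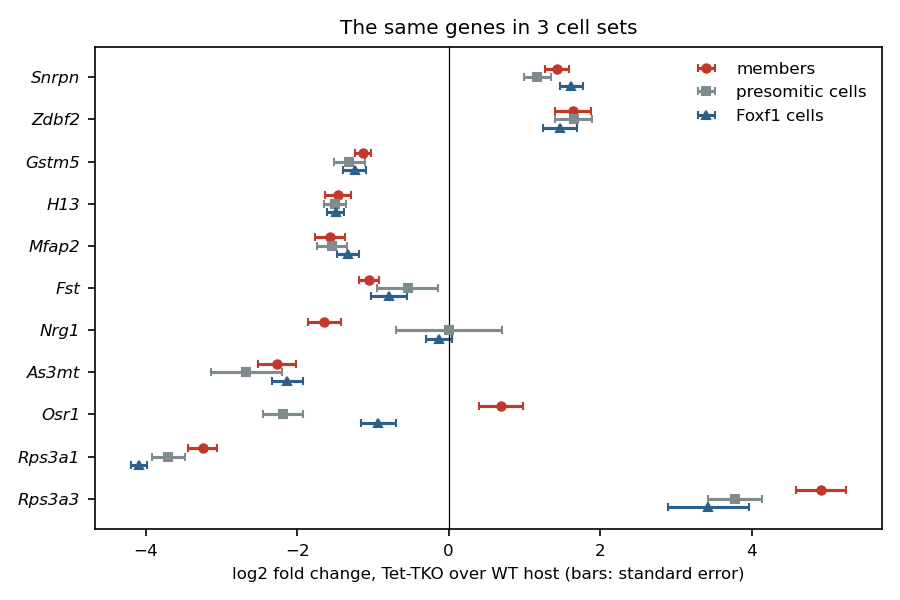
Log2 fold change of Tet-TKO over WT host (x axis, bars are standard errors) of 11 genes in members, presomitic cells and Foxf1 cells. Osr1 lies above 0 in members and below 0 in the other sets, and Nrg1 lies near 0 outside members.

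Hox genes were also read cell by cell. Each thinned member was put in a class by the highest Hox paralogue number of which it had a UMI: 26.3% had no Hox UMI, 51.7% reached 1 to 4, 10.4% reached 5 to 7 and 11.6% reached 8 to 13. A thinned cell with no Hox UMI may have missed Hox transcripts, so that class has no set place on the axis. Aldh1a2 was detected in 73.6% of the 5 to 7 class, against 38.1% with no Hox UMI, 47.4% of the 1 to 4 class and 33.3% of the 8 to 13 class. The 8 to 13 class had the largest share with Foxf1 (17.6%) and the smallest with Foxc2 (30.4%). Tbx1, a factor of head and pharyngeal mesoderm, was found in 22.1% of members with no Hox UMI and 8.82% of the 8 to 13 class. Fst was detected in 77.9% of members with no Hox UMI and in 67.2%, 49.5% and 40.2% of the other classes in order of number. These shares pool cells of all libraries and carry no test.

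The 8 to 13 class held 14.7%, 12.5%, 17.5% and 20% of members in Tet-TKO libraries and 9.04% and 8.03% in WT libraries. The genotypes did not overlap. The means were 16.2% ± 3.27 (SD, n = 4) and 8.54% ± 0.714 (SD, n = 2), with an exact permutation p of 0.133, the smallest that 4 against 2 can give, over 4 classes compared. Without thinning the shares were 19.6% to 38.0% and 12.8% to 13.4%. Beside it, Hox genes between genotypes had a median log2 fold change of 0.45 with 22 of 26 above 0, none called, and Hoxb7 at 2.09 (adjusted p = 0.0381).

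Fst was also read by Hox number. It was chosen because it was called in these same members, so this reading is no separate support. Among members with a highest Hox number of 4 or none, it was detected in 60.9%, 56.8%, 65.1% and 54.5% of Tet-TKO and 76.2% and 82.1% of WT members. Among those of 5 to 13 the shares were 40.9%, 33.3%, 26.5% and 47.1% against 60.7% and 58.0%. The libraries did not overlap in either class, but the 5 to 13 class held only 17 to 50 members per library. Of the other genes read in that class, Mfap2, Snrpn and Dmrt2 did not overlap, and Nrg1, Foxc2, Twist1, Tbx1 and Foxf1 did. Dmrt2 rested on very few cells, with 0%, 2.38%, 2.94% and 0% in Tet-TKO and 7.14% and 4.0% in WT libraries. No test was made, and no share over all genes was computed.

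**Figure D5:**
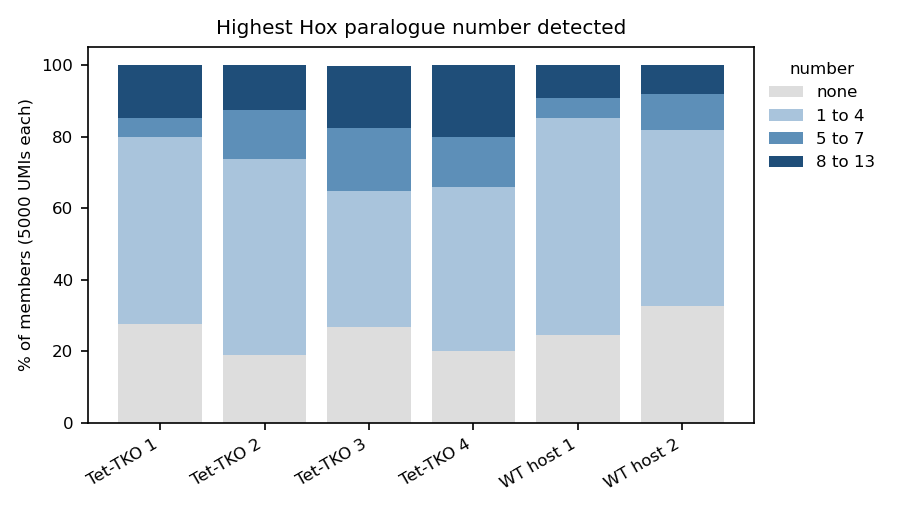
Percent of members (y axis) in each class of the highest Hox paralogue number with a UMI, by library, after thinning to 5000 UMIs per cell. The darkest segment, 8 to 13, covers 12.5% to 20% in Tet-TKO and 8.03% to 9.04% in WT host libraries.

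Genes of the anterior and posterior parts of the somite were detected in few cells. Uncx without Tbx18 was found in 67 members, Tbx18 without Uncx in 169, both in 9 and neither in 663. Those with both were 3 in Tet-TKO library 3, 4 in Tet-TKO library 4, which were the deepest libraries, and 2 in WT library 2. At 3 or more UMIs there were 22 Uncx and 37 Tbx18 members, and 0 with both. The number expected by chance was not computed, so whether the genes exclude each other was not tested. Tbx18 was present in 11.8% of members with Uncx and in 20.3% of the others, on unequal depths between libraries.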

How the data were processed

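Single-cell RNA-seq libraries (10x Genomics) of sorted chimaera cells were used. The authors mapped reads to mm10 with Cell Ranger, with the tdTomato sequence added, and deposited un-normalized UMI counts for every gene in every barcode. The headers of the counts give version 3.1.0, while the methods name a later release. The filters on cells were those of the methods. Cells were summed per library, so libraries are the replicates. Each E8.5 library held 1008 to 9545 kept cells and 50 to 291 members with 2364419 to 4240418 UMIs in all; binomial intervals (exact, 95%) cover counting error only.

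Genotypes, and members against presomitic or Foxf1 cells with library as a block, were tested with edgeR 4.0.16 (R 4.3.3; TMM, quasi-likelihood, filterByExpr), with Benjamini-Hochberg adjustment over all genes tested. DESeq2 1.42.0 was an alternative. Calls needed an adjusted p under 0.01 and a log2 fold change of 1. Tcf15, Meox1, Tbx6 and, where it chose cells, Foxf1 were left out. Scrublet (scanpy 1.11.5) expected 0.8% doublets per 1000 barcodes, and the kept cells with the highest scores were marked up to that number. Of 55422 features 230 share a name. Gene positions are from GENCODE M21.

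Members and gene lists were chosen with earlier results of these data known. Named genes were the called genes of the lists and those nearest to a call, the 12 called genes with the largest change in each direction whose libraries agreed, and 6 of each sign for differences between cell sets, without haemoglobin, Xist, Y-linked, tdTomato, rule and unnamed genes; Tet, Osr1, Mesp2 and single list genes given as examples were chosen after their values were seen. Alternatives covered depth, the member rule, doublets, tdTomato, normalization, filters, left-out libraries and a replicate block. Some genes that this rule selects are not reported here.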

Additional observations from a re-analysis of the deposited data

Results flagged for a closer look

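Osr1 was singled out because its Tet-TKO log2 fold change differed between members and presomitic cells by 2.92, by the test of the difference itself, and the value stayed between 2.59 and 3.2 under 9 alternatives. Rps3a3 differed in the same way by 1.09 from presomitic and 1.31 from Foxf1 cells, and how reads were divided between it and near-identical copies was not tested.

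Within the 4 Tet-TKO libraries, library 4 stood apart for Rps15a-ps8 (119 CPM) and library 2 for Asb4 (3.38 CPM), by Dixon's test, which chance meets in about 1 in 20 groups.

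The same rule found members at E7.5, which the comparisons did not use: 36 of 7142 kept WT host cells (0.504%, exact 95% interval 0.353 to 0.697) and 1 of 5510 Tet-TKO cells (0.0181%, 0.000459 to 0.101). With 1 library of each genotype there was no test, and the single Tet-TKO cell had no tdTomato UMI. Tcf15 without Meox1 and without Tbx6 was found in 604 and 416 cells.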

How the results depend on the processing

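The difference in share of members was reversed by thinning (-0.0906), without cells of high haemoglobin (-0.316) and with both (-0.616, added after seeing the data), and ranged from -0.295 to 0.832 when single libraries were left out, with -0.0484 without Tet-TKO library 3, -0.295 without library 4 and -0.104 without WT library 1. The cause was not tested.

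Genes higher and lower in Tet-TKO members (17 and 21) became 38 and 49 with DESeq2, 126 and 152 with no filter on low counts, and 9 and 8 with 50 members per library. Lower genes became 33 at 2 or more UMIs of the rule genes, 12 without doublets and 13 with libraries summed in pairs. Leaving out 1 library gave 7 to 21 higher and 6 to 20 lower, with 7 and 8 without WT library 1, 8 and 6 without WT library 2, and 9 lower without Tet-TKO library 2. Chosen after seeing the data, leaving out Tet-TKO libraries 3 and 4 gave 53 and 66, and leaving out 1 and 2 gave 180 and 167. The replicate block on libraries 1 and 2 gave 79 and 126; same-numbered libraries share only a number (correlation of deviations 0.0717, 2 pairs).

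The genes higher in members than in presomitic cells became 444 with no filter and 858 with no minimum fold change, and the genes lower in members than in presomitic cells became 514 and 802. With no minimum fold change the genes higher in members than in Foxf1 cells became 1985 and the genes lower in members than in Foxf1 cells 2236. Without single libraries they were 265 to 302 and 298 to 332, and 333 to 369 and 824 to 891. Genes whose genotype difference differed between cell sets rose to 45 and 68 with no filter, and ranged from 1 to 4 and from 0 to 6 without single libraries, with 4 without Tet-TKO library 3 and 1 without WT library 1 against presomitic cells and, against Foxf1 cells, 6, 0, 3 and 3 without Tet-TKO libraries 1 to 4 and 2 and 4 without WT libraries 1 and 2. No named gene changed sign. Of genes that missed the limit between genotypes, Lhx1 passed under 6 of 23 alternatives, Asb4 under 5 of 23, Eya2 under 3 of 23, Mesp2 under 3 of 20, Myf5 under 3 of 17 and Hoxb7 under 2 of 22.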
